A study of Mus musculus with 14 samples.

Results

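The genes described here make and carry retinoids: Stra6, Rdh10, Dhrs3, Aldh1a2, Aldh1a3, Crabp1 and Crabp2. They are 7 of 21887 protein-coding mouse genes, and each was found in the gene table of build GRCm38.p6. What is described is the set of chromatin sites nearest to them. A region was a stretch of genome holding a peak of the same protein in both replicates, and it was given to the gene whose end, of all protein-coding genes, lay nearest to its strongest summit and within 100 kb. By this rule the 7 genes held 99 regions over 6 groups of libraries. These were 43 of 53025 regions of p300 in gastruloids, 19 of 31014 of p300 in mESCs, 7 of 2352 of RXRα in gastruloids and 15 of 24698 of RXRα in mESCs. They also held 5 of 10953 regions of Sp5 and 10 of 10172 of Zeb2, both in gastruloids.

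Chromatin immunoprecipitation with sequencing (ChIP-seq) was carried out on gastruloids and on undifferentiated mouse embryonic stem cells (mESCs). Gastruloids are aggregates of mESCs that elongate and form embryo-like tissues; here each started from 300 sorted cells, received 3 µM of the Wnt pathway activator CHIR99021 from 48 h on, and was collected at 120 h. All libraries came from the E14_triple reporter mESC line, described in the growth protocol as a reporter of Brachyury (GFP) and SOX17 (RFP). For the p300 libraries and the inputs the endogenous p300 gene carried a V5-miniTurboID tag. For the RXRα, Sp5 and Zeb2 libraries the endogenous Rxra, Sp5 or Zeb2 gene carried an HA-FKBP12F36V degron tag. Overlaps of p300 with another protein thus compare differently tagged cells. Every library, inputs included, reports on tagged cells, and no library of an untagged line was analysed here. The groups were p300 and RXRα in gastruloids, p300 and RXRα in mESCs, and Sp5 and Zeb2 in gastruloids, with 2 replicates each, beside 1 unprecipitated input of gastruloids and 1 of mESCs, both from the p300 line. The labels do not say whether replicates were separate cultures.

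Retinoic acid is made from vitamin A in a chain of steps. STRA6 takes retinol up from the blood carrier, RDH10 oxidises retinol to retinal, DHRS3 reduces retinal back to retinol, and the ALDH1A enzymes turn retinal into retinoic acid, which CRABP1 and CRABP2 then bind in the cytoplasm. In the nucleus retinoic acid acts on receptors that pair with RXRα; p300 is a coactivator found at active enhancers and promoters, Sp5 is an Sp-family protein that Wnt signals switch on, and Zeb2 represses epithelial genes.

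The letters in front of 3 of the genes are shown because a region of a protein lay over them or because a matching motif was present without a region of its protein. Each is the RefSeq window of 250 bases in front of an annotated start of transcription, GRCm38.p6, + strand, 5′ to 3′. Capitals mark GGGCGG or its reverse complement CCGCCC (the Sp box) and CACCTG or its reverse complement CAGGTG (the Zeb box).
Stra6 (chr9:58129099-58129348): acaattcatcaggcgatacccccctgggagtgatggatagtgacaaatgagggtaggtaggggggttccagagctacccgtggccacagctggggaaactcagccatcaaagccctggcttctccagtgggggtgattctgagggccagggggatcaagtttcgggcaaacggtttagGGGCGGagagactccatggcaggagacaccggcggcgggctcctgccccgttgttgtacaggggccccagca
Aldh1a2 (chr9:71215539-71215788): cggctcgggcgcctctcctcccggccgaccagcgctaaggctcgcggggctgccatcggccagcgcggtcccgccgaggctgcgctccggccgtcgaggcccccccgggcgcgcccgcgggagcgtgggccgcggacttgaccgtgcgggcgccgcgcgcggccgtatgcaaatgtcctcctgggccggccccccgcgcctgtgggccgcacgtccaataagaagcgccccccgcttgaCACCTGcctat
Crabp1 (chr9:54764498-54764747): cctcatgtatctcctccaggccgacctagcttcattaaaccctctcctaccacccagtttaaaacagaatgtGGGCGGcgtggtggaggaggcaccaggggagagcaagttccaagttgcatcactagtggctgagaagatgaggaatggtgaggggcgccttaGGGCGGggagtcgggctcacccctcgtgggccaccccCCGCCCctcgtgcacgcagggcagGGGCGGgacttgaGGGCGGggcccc
The Stra6 window lay under regions of all 4 proteins in gastruloids, the Aldh1a2 window under a Zeb2 region alone, and the Crabp1 window, which no Sp5 region overlapped, held the most Sp boxes of the 9 windows of these genes. Windows were found for Stra6 (4), Dhrs3 (3), Aldh1a2 (1) and Crabp1 (1). Over all 32851 windows of this length, 32.7% held an Sp box and 17.2% a Zeb box on either strand. The nuclear receptor hexamers were AGGTCA and, with 1 or both of its variable bases changed, AGTTCA, or also GGGTCA, or also GGTTCA. At least 1 of them, on either strand, occurred in 38.6% of all windows. None of the 9 held one, so direct repeats with 1, 2 or 5 bases between hexamers were not found in them either; such repeats stood in 0.164%, 0.174% and 0.0883% of all windows, by spacing. A match of letters is not a measured binding site.

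The values of a peak are the authors' own: the fold is the enrichment of fragments at the summit over the local background in that library, and it was not compared in height between libraries. The second RXRα gastruloid library stood apart, with 3111 peaks used, against 29867 in the first. Zeb2 had 12222 and 44310 in the second and first, Sp5 11932 and 19714. The p300 lists held 63117 and 75346 peaks in gastruloids and 44506 and 35371 in mESCs, and RXRα had 49661 and 28112 in mESCs. A region needs both replicates, so the shorter list limits it, and counts for RXRα, Sp5 and Zeb2 are given for single libraries too. The median peak of a library held 12 to 31 fragments at its summit. No input peak was assigned to any of the 7 genes. The stage labels were checked by p300 around marker genes: around 10 gastruloid markers 60 regions were gastruloid-only and 3 mESC-only, and around 10 mESC markers 23 and 33. All 10 gastruloid markers had more gastruloid-only regions. Of the 10 mESC markers 6 had more mESC-only regions and 2 more gastruloid-only ones. Over all assigned p300 regions 64% of those in gastruloids were gastruloid-only and 43.8% of those in mESCs mESC-only. Shares of the markers' own regions were not taken, and the lists were chosen with earlier results known, so the check is weak. Markers of cell types that could also be present had gastruloid-only regions too, 7 at 2 endoderm genes, 10 at 2 endothelial genes and 10 at 2 neural tube genes, against 3, 0 and 7 mESC-only regions. Bulk libraries cannot tell a site used in few cells from one used weakly in many.

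p300 was found around all 7 genes in gastruloids and around 6 of 7 in mESCs; over all genes 68.3% and 49.3% had a p300 region. A region was called gastruloid-only when both gastruloid replicates had it and no peak of an mESC library touched it, mESC-only in the reverse case, and shared when all 4 libraries had it. Of the 43 p300 gastruloid regions of the 7 genes, 29 were gastruloid-only, 10 were shared and 4 overlapped a peak of 1 mESC library. Over all assigned p300 gastruloid regions 64% were gastruloid-only, so the share at these genes was near the background. Of the 19 p300 mESC regions, 7 were mESC-only, against a background of 43.8%. Without the second mESC replicate there were 29 p300 mESC regions, of which 11 were mESC-only. The share over all regions at that setting is not given here. With 2 libraries per stage an exact test over libraries cannot give a p under 0.33, so no test was made between stages.

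The genes differed among themselves in this split. At Dhrs3 9 were gastruloid-only and 0 mESC-only, at Aldh1a2 7 and 0, and at Crabp2 4 and 0. Rdh10 had 2 and 1, Crabp1 2 and 1, Aldh1a3 4 and 4, and Stra6 1 and 1. More gastruloid-only than mESC-only regions were therefore counted at 5 of the 7, against 69.8% of the 13769 genes with a region of either kind. Aldh1a2 held 5 of the 10 shared regions. Crabp2 was the gene with no p300 region in mESCs.

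**Figure D1:**
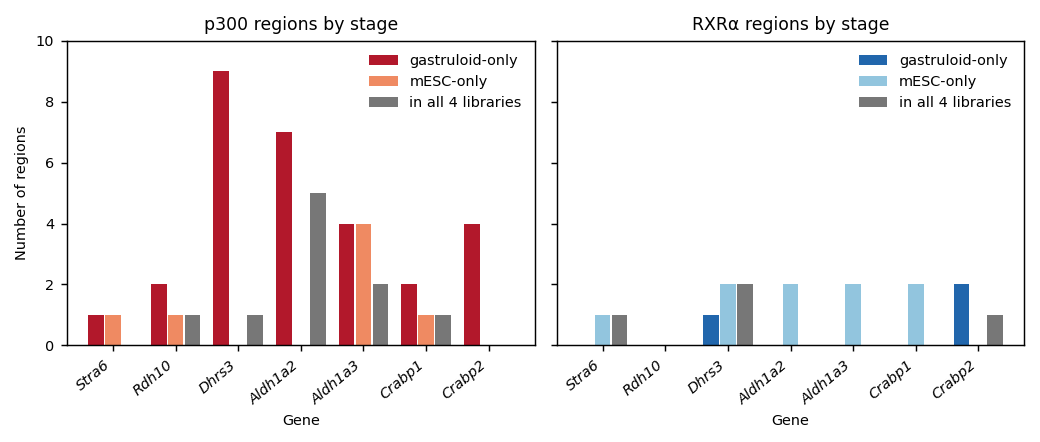
Number of p300 (left) and RXRα (right) regions of each gene that were gastruloid-only, mESC-only or present in all 4 libraries. Dhrs3 has 9 and Aldh1a2 7 gastruloid-only p300 regions and neither has an mESC-only one, while RXRα gastruloid-only regions stand at Dhrs3 (1) and Crabp2 (2) alone.

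p300 lists of gastruloids are longer than those of mESCs, and this moved the split. With every list limited to its strongest 35371 peaks, the 7 genes had 21 p300 regions in gastruloids and 17 in mESCs. Of the 21, 12 were gastruloid-only and 8 shared, and of the 17, 8 were mESC-only. Over all genes 60.5% of assigned gastruloid regions were then gastruloid-only and 60.5% of mESC regions mESC-only. p300 regions of gastruloids then numbered 5 at Dhrs3, 8 at Aldh1a2, 2 each at Aldh1a3, Crabp1 and Crabp2, and 1 each at Rdh10 and Stra6. At Dhrs3 5 were then gastruloid-only and 2 mESC-only, at Aldh1a2 3 and 0, and at Crabp2 2 and 0. Within 1 kb of a gene end lay 3 of 43 p300 regions in gastruloids, against 22.6% of all assigned regions, and 1 of 19 in mESCs, against 8.85%. Within 2.5 kb lay 7 of the 43, against 29% of all. The p300 regions at the starts of Stra6 and Rdh10, which the rule gives to neighbouring genes, are not in these counts. Inside the gene and over 1 kb from its ends lay 12 of the 43, against 37.2% of all, and 7 of the 19 in mESCs, against 42.3%.

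Stra6, the retinol transporter gene, lies on chromosome 9 from 58063793 to 58154004 in the table, overlapping the record of Ccdc33. Its counted regions were few, 2 for p300 in gastruloids and 1 in mESCs. The strongest of these in gastruloids lay inside the gene, 13293 bp before its high-coordinate end, with p300 folds of 13.7 and 17.2 (15.5 ± 2.52, SD, n = 2). In mESCs the region had a p300 peak of 5.59 in the first library alone. RXRα peaks overlapped it in both stages, at 17.2 and 5.47 in gastruloids and 11.7 and 9.01 in mESCs. This was the only counted Stra6 region of RXRα in gastruloids, and it rested on 97 and 20 fragments at the summit (95% Poisson intervals 78.7 to 118 and 12.2 to 30.9, for counting error only). In mESCs RXRα had a further region in front of the gene, 10366 bp from its low-coordinate end, with folds of 9.84 and 6.54 and no peak in gastruloids. A p300 region with folds of 6.72 and 6.52 lay 12058 bp in front of that end in mESCs alone.

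The rule missed the annotated promoter of Stra6. At the window printed above all 4 proteins had a region in both gastruloid replicates and no library of mESCs had a peak, but the nearest gene end to each summit belonged to Ccdc33, so none of these regions is in the counts. p300 had folds of 14.1 and 17.7 there, from 152 and 169 fragments. RXRα had 9.87 and 5.31, from 38 and 19 fragments (intervals 26.9 to 52.2 and 11.4 to 29.7). Sp5 had 7.68 and 5.55, and Zeb2 5.60 and 4.52. The strongest summits, at 58129175 for p300, 58129176 for RXRα, 58129284 for Sp5 and 58129116 for Zeb2, all fell inside the window. The Sp box of the window, at 58129277 to 58129282, was 2 bp from the Sp5 summit and 102, 101 and 161 bp from those of p300, RXRα and Zeb2. In all, 7 p300 gastruloid regions inside Stra6, each gastruloid-only, were given to Ccdc33, along with 1 RXRα region of gastruloids, 2 of mESCs, 1 Sp5 region and 3 Zeb2 regions. With the nearest annotated start of transcription in place of the nearest gene end, Stra6 had 3 gastruloid-only and 0 mESC-only p300 regions. Aldh1a2 then had 3 gastruloid-only regions in place of 7. The 7 genes together had 25 gastruloid-only of 37 p300 gastruloid regions, in place of 29 of 43. Over all assigned p300 gastruloid regions 63.7% were then gastruloid-only, against 64% by the nearest end.

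Rdh10, on chromosome 1 from 16105882 to 16132550, encodes the dehydrogenase that makes retinal. Its strongest p300 region stood in both stages: inside the gene, 2388 bp before its high-coordinate end, with folds of 17.3 and 17.6 in gastruloids and 19.3 and 18.8 in mESCs. This was the leading p300 region of the gene in each stage, and 3.30% of all p300 gastruloid regions had a higher mean fold. Inside the gene there was also 1 gastruloid-only region, 10757 bp from the low-coordinate end (5.24 and 6.40), and 1 mESC-only region at 13891 bp (7.04 and 6.96). A weaker gastruloid-only region lay 4225 bp past the gene (4.44 and 5.22). No RXRα region was assigned to Rdh10 in either stage, although the first libraries held peaks, 1 in gastruloids and 2 in mESCs.

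At the low-coordinate end of Rdh10 Sp5 had its 1 region, with folds of 5.77 and 4.08 and its strongest summit 701 bp before the end. A p300 region of gastruloids, with folds of 4.19 and 5.18, reached this end, but its strongest summit lay 72 bp from an end of Rpl7, a ribosomal protein gene, and it is counted there. The first RXRα gastruloid library had a peak 24 bp from the end of Rdh10 with a fold of 3.73, and the first Zeb2 library one at 233 bp with 4.43. Neither was in the second library. The first p300 mESC library also had a peak at this end, 451 bp before it, with a fold of 3.18, so the p300 region there is not gastruloid-only.

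Dhrs3, on chromosome 4 from 144892534 to 144928209, whose product returns retinal to retinol, had the most regions of the 7 genes, 25 over the 6 groups. Its leading p300 region in gastruloids, chr4:144949420-144950095, had folds of 21.7 and 25.7 (23.7 ± 2.84, SD, n = 2). The region held 237 and 222 fragments at its summit and had no p300 peak in mESCs. Of all p300 regions in gastruloids 0.502% had a higher mean fold. It lay 21472 bp past the high-coordinate end of Dhrs3, inside the larger gene Vps13d, whose record contains Dhrs3. RXRα, Sp5 and Zeb2 each had a region at the same place in gastruloids. RXRα had folds of 19.2 and 9.63 there, from 92 and 32 fragments (intervals 74.2 to 113 and 21.9 to 45.2), Zeb2 13.8 and 6.92, and Sp5 8.22 and 4.23. The strongest summits of the 4 proteins lay 57082 to 57174 bp from the low-coordinate end. No RXRα peak of either mESC library overlapped this region.

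The other Dhrs3 regions of gastruloids were weaker. At the start of the gene p300 had 7.08 and 4.37 and Sp5 6.26 and 4.68, with summits 22 and 28 bp before the low-coordinate end, and RXRα had a region there in mESCs (4.65 and 5.0) and a peak in the first gastruloid library alone (4.06). The 3 start windows of Dhrs3 held no Sp box, Zeb box or receptor hexamer. Zeb2 had a separate region inside the gene, 1233 bp from that end (3.77 and 5.24), where p300 had no peak in either stage. Inside the gene, 5893 bp from the end, p300 had 6.32 and 9.90 in gastruloids and no peak in mESCs, while RXRα was present in both stages, at 6.02 and 3.56 in gastruloids and 9.06 and 7.66 in mESCs. RXRα was thus at this place in mESCs, where p300 had no peak. The other 6 gastruloid-only p300 regions of Dhrs3 had folds between 3.14 and 8.90.

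A second RXRα region shared by the stages, 72020 bp past the gene, had folds of 7.95 and 3.93 in gastruloids and 4.92 and 3.78 in mESCs and no p300 peak in any library. The strongest p300 region of Dhrs3 in mESCs lay 78234 bp past the gene, with folds of 21.3 and 18.4; the second gastruloid library had a peak of 4.16 there, so the region counts as neither mESC-only nor shared. RXRα overlapped it in mESCs alone (4.34 and 4.07). A further RXRα region of mESCs, 68890 bp past the gene, had 5.26 and 4.12 and overlapped a peak of the first RXRα gastruloid library (5.55) and single p300 peaks of the second gastruloid (3.37) and first mESC library (5.20). The leading p300 regions of Dhrs3 in gastruloids and in mESCs thus lay in different places.

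**Figure D2:**
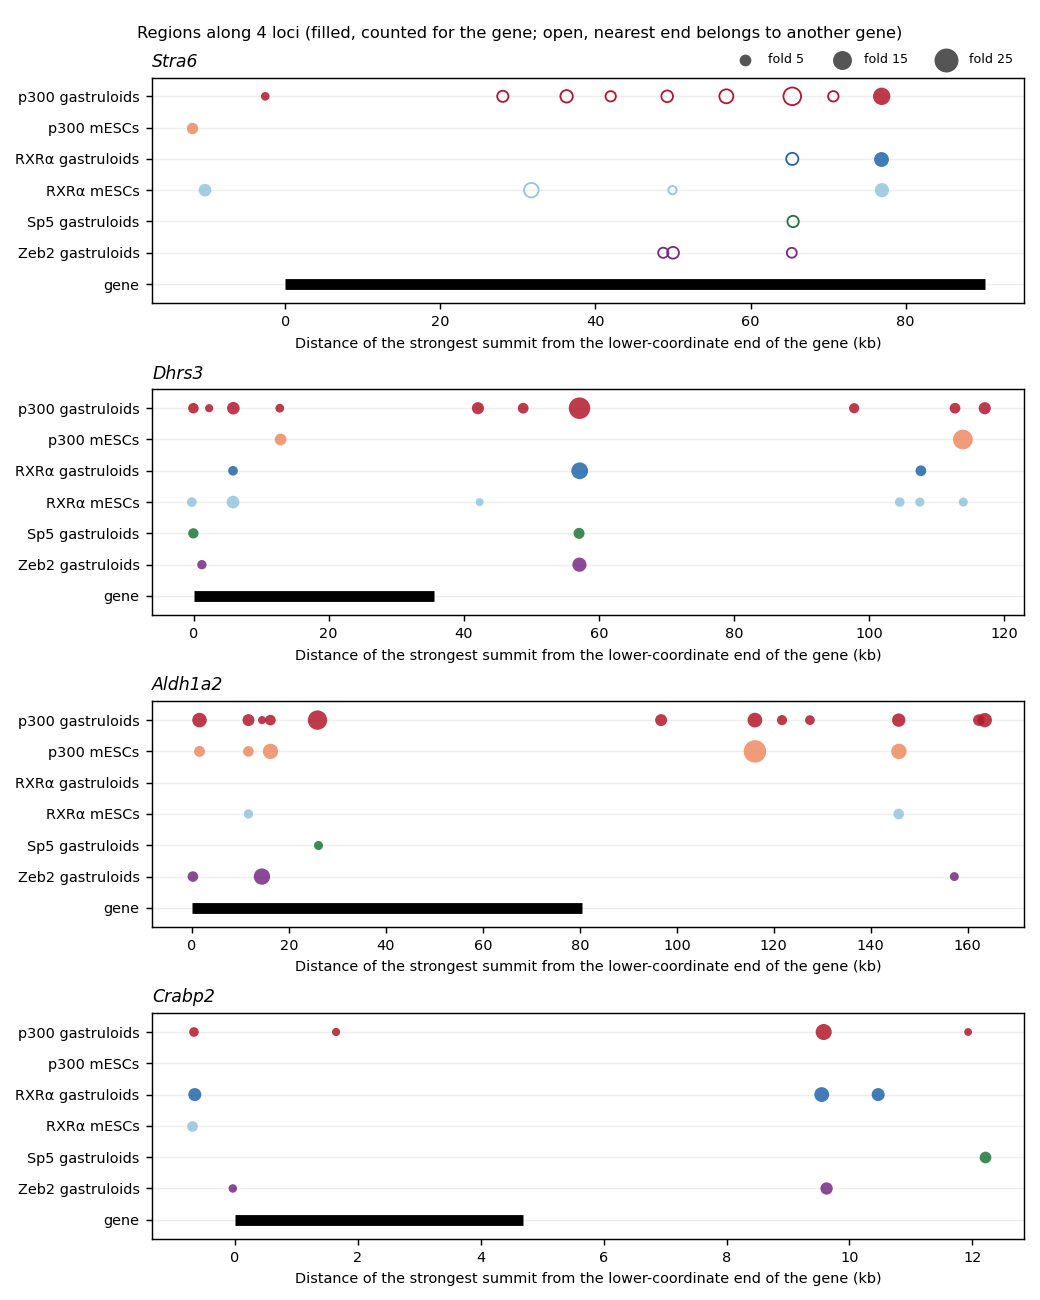
Regions along Stra6, Dhrs3, Aldh1a2 and Crabp2 by group; the x axis is the distance of the strongest summit from the lower-coordinate end of the gene in kb, the black bar is the gene, and the area of a point grows with the mean fold of the 2 replicates. Open points are regions inside the gene whose nearest gene end belongs to another gene; at Stra6 all 4 proteins have such a point at the annotated start in gastruloids, and at Dhrs3 all 4 have a region about 57.1 kb from the low end.

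Aldh1a2, on chromosome 9 from 71215789 to 71296243, encodes the main retinoic acid-making enzyme of the early embryo. It had the most p300 regions of the 7 genes in gastruloids, 12, of which 7 were gastruloid-only, and 5 in mESCs, all of them shared. The strongest in gastruloids, chr9:71241381-71242249, lay inside the gene, 25904 bp from its start, with folds of 18.5 and 20.0 (19.2 ± 1.08, SD, n = 2) from 179 and 109 fragments, and neither mESC library had a peak there. Of all p300 gastruloid regions 2.08% had a higher mean fold. Sp5 had a region at this place (3.27 and 5.10), on 6 and 17 fragments (intervals 2.2 to 13.1 and 9.90 to 27.2), and the first libraries of RXRα (6.65) and Zeb2 (4.77) had a peak.

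The strongest p300 region of Aldh1a2 in mESCs lay elsewhere, 35651 bp past the gene. Its folds were 9.46 and 12.8 in gastruloids and 27.6 and 24.1 in mESCs, so all 4 libraries had it, and in mESCs 1.95% of all p300 regions had a higher mean fold. A shared region inside the gene, 1574 bp from its start, had 11.4 and 10.3 in gastruloids and 5.82 and 6.41 in mESCs. The last 2 gastruloid-only regions, 81830 and 83045 bp past the gene, had 5.96 and 7.76, and 10.2 and 10.97. RXRα had 2 regions at Aldh1a2, both in mESCs alone: 1 inside the gene at 11671 bp (5.40 and 3.61) and 1 lying 65303 bp past it (6.18 and 5.31), each at a p300 region shared by the stages.

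Zeb2 had 3 regions at Aldh1a2. The strongest, inside the gene 14447 bp from its start, had folds of 15.0 and 12.4 from 49 and 25 fragments; 2.51% of all Zeb2 regions had a higher mean fold. p300 was weak there, at 3.31 and 3.47 in gastruloids, and absent from the mESC lists. Another Zeb2 region, 6.26 and 5.20, covered the whole start window printed above and had no p300 peak in any library; of its 2 peaks only that of the first library reached into the window. The window held 1 Zeb box, CACCTG at 71215778 to 71215783, 5 bases before the start, and the Zeb2 summit lay 218 bp from it, on the other side of the start. Single peaks of RXRα in gastruloids (4.64), RXRα in mESCs (3.99) and Sp5 (3.87), each in the first library alone, overlapped the same stretch. The third Zeb2 region, 76772 bp past the gene, had 4.10 and 4.11 and no other protein.

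Aldh1a3, on chromosome 7 from 66390892 to 66427477, encodes another retinoic acid-making enzyme and was split evenly. It had 7 p300 regions in gastruloids and 7 in mESCs, with 4 gastruloid-only, 4 mESC-only and 2 shared. The strongest in mESCs was mESC-only and lay 70590 bp past the high-coordinate end. It had p300 folds of 23.1 and 23.5 from 323 and 264 fragments and RXRα folds of 5.76 and 4.92. In gastruloids the strongest, 65865 bp past that end, had 7.88 and 9.26 and no peak of p300 in mESCs. The leading p300 regions of the stages thus lay in different places at this gene too.

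At the high-coordinate end of Aldh1a3 p300 (3.61 and 4.63) and Zeb2 (5.03 and 5.34) had regions in gastruloids, with summits 63 bp past and 143 bp before it, and no mESC library had a peak. The first libraries of RXRα in gastruloids (3.43) and of Sp5 (4.82) had a peak there too. RXRα had no region of Aldh1a3 in gastruloids and 2 in mESCs, the other 1 lying 2294 bp past the end (4.67 and 3.68).

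Crabp1, on chromosome 9 from 54764748 to 54773110, encodes a cytoplasmic binding protein for retinoic acid. Its strongest p300 region in gastruloids lay 11809 bp in front of the gene, with folds of 14.2 and 15.9 (15.0 ± 1.20, SD, n = 2) and no mESC peak. Zeb2 had a region at the same place, with 9.82 and 5.86. The first libraries of RXRα (10.5) and Sp5 (4.86) had a peak there that the second libraries did not. In mESCs the strongest lay 30089 bp past the gene and was shared, with p300 folds of 7.64 and 8.21 in gastruloids and 16.2 and 13.2 in mESCs; RXRα was at this place in mESCs alone (10.8 and 8.55). The other RXRα region of Crabp1 in mESCs, 13888 bp past the gene, had 4.24 and 3.82.

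At the other end of Crabp1, 77 bp before its high-coordinate end, p300 had an mESC-only region (8.03 and 7.23). A second Zeb2 region lay inside the gene, 1219 bp from its start (5.18 and 5.87), where p300 had a peak in the first gastruloid library alone (3.17). The start window held 5 Sp boxes and no Zeb box. Sp5 had a peak over it in the first library and not in the second, which had no peak assigned to Crabp1. Single peaks of p300 in the second gastruloid library and of RXRα in the first mESC library overlapped the window too. The strongest RXRα peak of Crabp1 in gastruloids was in 1 library: 4929 bp in front of the gene, the first replicate had a fold of 21.5 from 129 fragments, the highest RXRα fold there at any of the 7 genes, the second had no peak, and no p300 region of gastruloids lay there.

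Crabp2, on chromosome 3 from 87948693 to 87953372, encodes the carrier that hands retinoic acid to its nuclear receptors. It had 4 p300 regions in gastruloids and none in mESCs. The strongest lay 4901 bp past the gene, chr3:87958085-87958521, with folds of 12.2 and 14.2 (13.2 ± 1.45, SD, n = 2). RXRα stood at this place in gastruloids, with 17.8 and 4.90 from 227 and 20 fragments (intervals 198 to 259 and 12.2 to 30.9), and Zeb2 with 8.18 and 7.43. An RXRα region 5788 bp past the gene had 11.8 and 5.55, from 151 and 23 fragments, with no p300 region under it. Neither RXRα region overlapped a peak of the mESC libraries.

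In front of Crabp2 RXRα was found in both stages, with its strongest summit 653 bp from the low-coordinate end in gastruloids. Its folds were 11.3 and 6.02 in gastruloids, from 86 and 24 fragments, and 7.25 and 4.62 in mESCs. p300 was there in gastruloids (4.26 and 5.30) and in neither mESC library. Zeb2 had a region with its summit 35 bp in front of the same end (3.34 and 4.08), and the first Sp5 library had a peak (6.51). The Sp5 region of Crabp2 lay 7522 bp past the gene, with 7.30 and 6.76, over a p300 region with folds of 3.16 and 3.14.

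**Figure D3:**
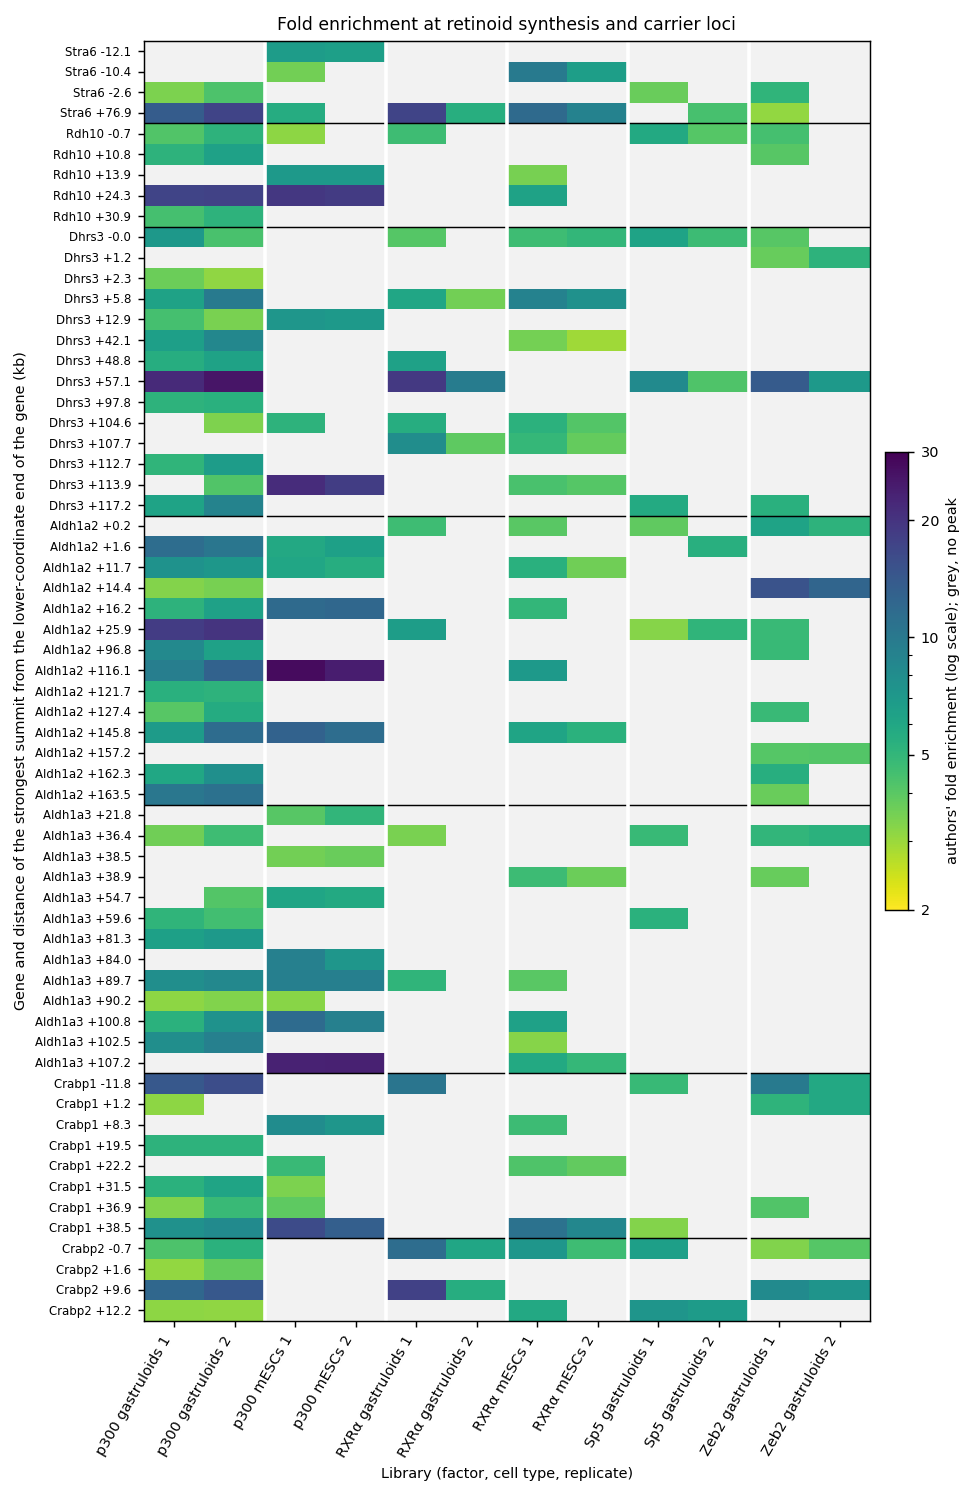
Authors' fold enrichment (colour, log scale) at all 62 loci of the 7 genes in each of the 12 immunoprecipitation libraries; rows are named by gene and the distance in kb of the strongest summit from the low-coordinate end, and grey means that the library had no peak. RXRα columns of gastruloids are filled at far fewer loci in the second replicate than in the first, and the 4 proteins are all present at the Dhrs3 locus at +57.1 kb.

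RXRα regions were counted at fewer of these genes in gastruloids than in mESCs. In gastruloids they were found at 3 of the 7 genes, Dhrs3 (3), Crabp2 (3) and Stra6 (1), against 8.74% of all genes, and in mESCs at 6 of the 7, against 49.4%. Of the 7 gastruloid regions 3 were gastruloid-only, against 17.8% of all assigned RXRα gastruloid regions, and the other 4 were shared. Of the 15 mESC regions 9 were mESC-only, against 63.5%; these stood at Dhrs3 (2), Aldh1a2 (2), Aldh1a3 (2), Crabp1 (2) and Stra6 (1). Of the 6 genes with a region of either kind, 1, Crabp2, had an excess of gastruloid-only regions, against 1.94% of 7982 genes. At a gene end lay 1 of 7 in gastruloids (43.2% of all) and 2 of 15 in mESCs (20%).

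The RXRα counts rest on the short second gastruloid list. The first replicate alone had 18 peaks at these genes, of which 7 were in both replicates, and the second alone had 8. Of the 11 peaks in the first alone, 3 were at Dhrs3, 3 at Crabp1, 2 at Aldh1a2, 2 at Aldh1a3 and 1 at Rdh10, and 7 of the 11 lay at a p300 region. Without the second replicate 10 of 18 regions were gastruloid-only, in place of 3 of 7. Over all assigned RXRα gastruloid regions 48.6% were then gastruloid-only, against 17.8% with both replicates. The share at these genes was then nearer the background. Without the second mESC replicate 22 of 30 mESC regions were mESC-only, in place of 9 of 15. The share over all mESC regions at that setting is not given here. With every RXRα list limited to its strongest 3111 peaks, the 7 genes had 5 of 1226 assigned regions in gastruloids (Crabp2 3, Dhrs3 1, Stra6 1) and 0 of 2340 in mESCs. This cut kept the whole second gastruloid list but only 3111 of the 49661 and 28112 mESC peaks, so weaker mESC regions dropped out. At that length these genes held RXRα regions in gastruloids and none in mESCs, whereas the full lists held 7 and 15.

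**Figure D4:**
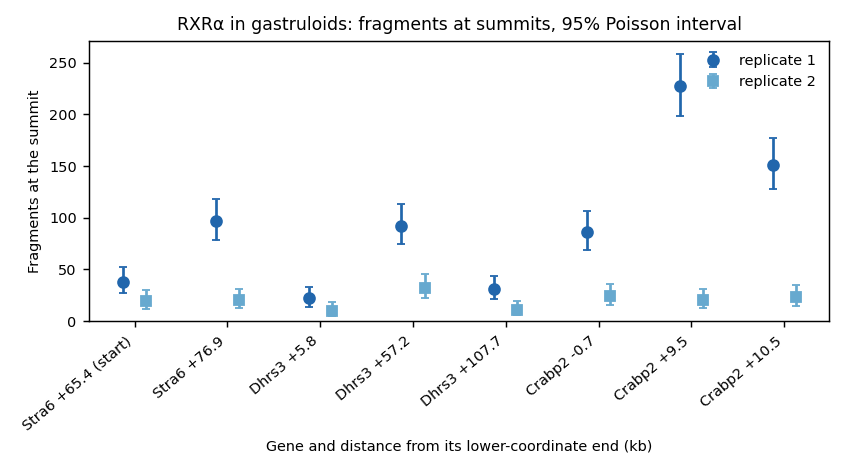
Fragments at the RXRα summit in each gastruloid replicate, with exact 95% Poisson intervals that cover counting error only, at the 7 counted regions and at the start of Stra6, named by the distance in kb from the low-coordinate end of the gene. The first replicate is above the second at all 8, from 22 and 10 fragments at Dhrs3 +5.8 kb to 227 and 20 at Crabp2 +9.5 kb.

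At least 1 of RXRα, Sp5 and Zeb2 was found at 11 of the 43 p300 gastruloid regions of these genes, against 29.6% of all assigned p300 gastruloid regions. RXRα was at 5 of the 43, against 4.28% of all; Sp5 was at 4, against 20.9%; and Zeb2 was at 5, against 17.1%. Of the factors' own regions, 5 of the 7 RXRα regions lay at p300 in gastruloids (86% of all), as did 5 of 5 Sp5 regions (84.9%) and 5 of 10 Zeb2 regions (78.1%). The Zeb2 regions without p300 were at Aldh1a2 (2), Dhrs3, Crabp1 and Crabp2 (1 each). In mESCs 5 of 15 RXRα regions lay at p300, against 42.4%. Sp5 regions were found at 4 of the 7 genes (39.9% of all genes) and Zeb2 regions at 5 (33%); 2 of 5 and 3 of 10 were at a gene end, against 64.6% and 49.4%.

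These overlap counts changed when the shorter library of a pair was left out. Without the second RXRα replicate 11 of the p300 regions held RXRα, without the second Sp5 replicate 10 held Sp5, and without the second Zeb2 replicate 17 held Zeb2. The shares over all p300 regions were not taken with a replicate left out, so these counts have no background beside them. Sp5 had 16 peaks at these genes in its first library and 7 in its second, and Zeb2 31 and 11. Without the second p300 mESC replicate 9 of the RXRα regions of mESCs lay at p300, and without the second RXRα mESC replicate 12 did. Leaving a replicate out also drops the need for both replicates to agree, so list length and agreement of replicates cannot be told apart here.

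The 2 genes with the most peaks over the 12 libraries were compared with all others. Likeness was the Euclidean distance between 2 genes' peak counts over the 12 libraries, taken as log2 of the count plus 1, among 18510 genes with a peak. Dhrs3 (68 peaks) was most like Il17rd (distance 1.12), Rnf144b (1.47) and Phc2 (1.48). Aldh1a2 (62 peaks) was most like Dapk1 (1.02), Myo18b (1.21) and Lgalsl (1.24). The counts share list length within a library and the distances are given as a description.

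The rest of the retinoid pathway was set beside these genes with 39 further genes. Of their 84 p300 regions in gastruloids 54 were gastruloid-only, 64.3%, near the 64% of all regions, and of 42 in mESCs 14 were mESC-only, 33.3%, against 43.8%. There were more gastruloid-only at 21 genes, more mESC-only at 1 and equal numbers or none at 17. Over all genes with a region of either kind 69.8% had more gastruloid-only ones, a share that leaves out genes with none. For uptake and conversion (30 genes) 27 of 47 p300 gastruloid regions were gastruloid-only (57.4%) and 7 of 24 mESC regions mESC-only (29.2%). For degradation (3 genes) the counts were 11 of 13 (84.6%) and 2 of 4 (50%). For the receptors (6 genes) they were 16 of 24 (66.7%) and 5 of 14 (35.7%). The most gastruloid-only p300 regions stood at Cyp26a1 (8), which encodes an enzyme that breaks retinoic acid down, Rxra (6), the gene of RXRα itself, and Aldh1a1 (4), another gene for a retinoic acid-making enzyme. Cyp26b1, Fabp5 and Rara had 3 each. RXRα had 10 regions in gastruloids at 6 of the 39 genes, beside 8.74% of all genes: Cyp26a1 (4), Cyp26b1 (2), and Rara, Rarg, Rdh14 and Fabp5 (1 each).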

How the data were processed

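ChIP-seq was analysed from the peak lists the authors deposited, 1 per library and not pooled, for 12 immunoprecipitations and 2 inputs. Per the submitters' processing notes, MACS2 2.2.7, fastp 0.20.1 and BWA 2.2.1 were used, and the build was GRCm38.p6 (mm10); settings, and whether an input served as control, are not given in the sources used here. The fold the authors deposited is a ratio of the pileup at the summit to the local background. The deposited −log10 p and −log10 q are the peak caller's, and the lowest −log10 q, 1.30, matches a q-value threshold of 0.05. The deposited score equalled 10 times −log10 q, rounded down, in 99.96% of peaks, and the last deposited column is the offset of the summit.

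Peaks with the same ends were counted once, only the 21 main chromosomes were kept, and peaks overlapping an input peak were removed, which took no peak of the 7 genes. Peaks of both replicates that overlapped by at least 1 bp made a region, assigned to the nearest end of 21887 protein-coding RefSeq genes within 100 kb. That table gives no strand, so ends are named by coordinate; strand and start windows came from the RefSeq promoter table. Assignment by distance leaves the regulated gene unknown. Fragments at summits were recovered from fold and −log10 p and came out whole within 0.01 in 99.8% to 100% of peaks per immunoprecipitation; intervals are exact Poisson at 95%. Sequencing depth is unknown. The recovery, merging and class steps were tested on simulated data. Results are counts beside the same share over all assigned regions where one was taken, with no test.

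The 7 genes, the marker lists and the pathway list were chosen with earlier results of these data known. Every member is named, with the strongest region of each group and each place held by RXRα, Sp5 or Zeb2 in gastruloids; of the 39 other retinoid genes, the 5 with most gastruloid-only p300 regions, ties included, and those with an RXRα region in gastruloids are named. The alternatives were an overlap of 50% of the shorter peak, −log10 q of at least 5, assignment within 20 kb, input peaks kept, lists of equal length, the nearest start, a gene end window of 2.5 kb, and each replicate left out. Python 3.11.15, pandas 2.3.3 and scipy 1.17.1 were used.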

Additional observations from a re-analysis of the deposited data

Results flagged for a closer look

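A region 6435 bp past Dhrs3, inside Vps13d, was flagged because p300 and RXRα were called in opposite stages there. p300 was present in both gastruloid libraries, with a mean fold of 7.55, and in neither mESC library. RXRα was present in neither gastruloid library and in both mESC libraries, with a mean fold of 3.24, from 12 and 9 fragments at the summit. That RXRα region was near the calling limit. Its −log10 q in the second library was 1.42, where the lowest of any peak was 1.30, and 97.9% of RXRα mESC regions had a higher mean fold. Its strongest summit lay 6689 bp past the gene. Over all assigned regions 64% of p300 gastruloid and 63.5% of RXRα mESC regions were found in 1 stage only. The difference between the proteins was not tested.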

How the results depend on the processing

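No paired analysis was possible because the results are counts of regions with no test, in which replicate numbers play no part. An overlap of 50% and keeping input peaks moved no count of the 7 genes together by over 1.5 times. With −log10 q of at least 5, 5 of 10 RXRα mESC regions were mESC-only, against 69.1% of all assigned ones. At that limit 3 RXRα mESC regions lay at p300, Sp5 had 2 regions, and Sp5 and Zeb2 were at 2 and 3 p300 regions. Within 20 kb, 17 of 23 p300 gastruloid regions were gastruloid-only, against 62.5% of all assigned ones, and 5 were shared. RXRα had 9 regions in mESCs, 5 of them mESC-only, against 58.1% of all, and 1 at p300. Sp5 had 3 regions, with 2 p300 regions holding Sp5. With lists of equal length, 12 of 21 p300 gastruloid regions were gastruloid-only, against 60.5% of all assigned ones. RXRα then had 5 regions in gastruloids, all 5 gastruloid-only, against 64.8% of all assigned RXRα gastruloid regions. In mESCs RXRα had 0 regions and so 0 mESC-only ones, where 78.1% of all assigned RXRα mESC regions were mESC-only. Sp5 had 0 and Zeb2 3, and p300 regions with RXRα, Sp5 and Zeb2 numbered 3, 0 and 2. By nearest start, 3 of 10 RXRα mESC regions lay at p300. No share over all regions was taken for the overlaps at these settings. Within 2.5 kb of a gene end there were 7 p300 gastruloid regions, against 3 within 1 kb.

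With each replicate left out in turn, gastruloid-only p300 regions ran from 29 to 41, mESC-only from 7 to 11 and shared from 10 to 14. The shares over all p300 regions at these settings are not given here, so these ranges have no background beside them. RXRα regions ran from 7 to 18 in gastruloids (gastruloid-only 3 to 10) and from 15 to 30 in mESCs (mESC-only 9 to 22, at p300 5 to 12). Without the second gastruloid replicate 48.6% of all assigned RXRα gastruloid regions were gastruloid-only, and without the first 33.4%, against 17.8% with both. Without the first gastruloid replicate 93.2% of all assigned RXRα mESC regions were mESC-only, against 63.5% with both. The RXRα shares without an mESC replicate are not given here. Sp5 regions ran from 5 to 16 and Zeb2 regions from 10 to 31, and p300 regions with RXRα, Sp5 and Zeb2 from 5 to 11, 4 to 10 and 5 to 17. For these overlaps no share over all p300 regions was taken with a replicate left out. The upper ends came without the second replicate of the protein counted, except gastruloid-only p300, which was highest without the first gastruloid replicate. Over single genes 102 counts moved by over 1.5 times and 472 did not. These counts are small, and depth could not be equalised from peak lists.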

Other observations

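Of the 62 loci, 8 had p300 peaks in both gastruloid libraries and no peak of any protein in any other library. How common such loci are over all p300 gastruloid regions was not counted, so this count has no background beside it. The 8 loci belonged to 6 of the 7 genes, 3 to Dhrs3 and 1 each to Rdh10, Aldh1a2, Aldh1a3, Crabp1 and Crabp2, and their folds ran from 3.09 to 6.96.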
